A study of Mus musculus with 186 samples.

Results

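The constructs described here are versions of the mouse Pwp2 promoter in which the CpGs of 4 windows were either kept or mutated, alone and in combination. They were chosen by their names in a library that holds both window and motif mutants of Pwp2. A digit for each window says whether its CpGs outside of bound transcription factor motifs are intact or mutated. Of 16 possible combinations, 14 were listed, among the 34 constructs of this library and the 572 constructs listed in the tables of the 8 promoter libraries of the series. The construct with all 4 windows mutated and the one with windows 1, 2 and 3 mutated had no values, and the construct with windows 1, 2 and 4 mutated had values in wild-type cells only. Constructs are named by their mutated windows, so that mut3 has window 3 mutated, mut24 has windows 2 and 4 mutated, and the construct with all windows intact is the reference. All names, that of the reference included, end in MycAw, which is not explained in the sources read here, so that the reference may carry a change that all constructs share.

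The study asked how CpGs outside of transcription factor motifs contribute to the activity of CpG island promoters, using TrAC-seq, a reporter assay with barcodes (BCs). The constructs drove a GFP reporter and were inserted as a pool by recombinase-mediated cassette exchange at 1 site, the beta-globin locus of mouse embryonic stem cells (ESCs). Wild-type cells were of the TC-1 line, and TKO cells were made from the same line by CRISPR-Cas9 deletion of Dnmt1, Dnmt3a and Dnmt3b, the DNA methyltransferases. In each cell line, RNA and genomic DNA were collected in 3 replicates, and nothing says that these were separate cultures, so that p-values reflect only how these replicates vary, possibly for technical reasons. TKO cells share the insertion site and the parental line with wild-type cells, and the sources used here do not say how many TKO clones were used. The pool was combined with another promoter library, as cells in the wild-type line and as DNA before insertion in the TKO line.

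CpG islands are stretches of DNA with many CpGs, most of them unmethylated, that contain the promoters of most broadly expressed genes. Pwp2 encodes a protein of the small-subunit processome, which is needed to make the small ribosomal subunit, and is expressed in dividing cells in general. In CpG islands, CpGs occur within the motifs of factors such as NRF1, SP1 and GABPA, and also between them. The study spared CpGs in motifs of SP1, SP3, GABPA and NRF1 found bound at the promoter, and mutated the others. The paper does not exclude that some mutated CpGs lay in unverified motifs, though it considers this unlikely as a source of the effect. It names the wider spread of Pwp2 activities at similar CpG density as a possible sign. To address this, the authors replaced short stretches of Pwp2 in turn. They then mutated only CpGs in stretches of minor or no effect, and report that activity still decreased. Whether mutated CpGs of any window lay in unverified motifs was not tested here.

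The wild-type Pwp2 insert, as listed in another library of the series, lay at chr10:77647729-77648156 (mm9, minus strand), a stretch of 428 bp with 37 CpGs. It reached from 262 bp before the annotated transcription start of Pwp2 (ENSMUSG00000032834.9, start at position 77647894) through exon 1, which holds the start codon (first base at 77647833), into the first 87 bp of intron 1. The genome sequence of this stretch had the G+C content and OE (the ratio of observed over expected CpGs) listed for that insert. The reference construct was listed with 39 CpGs, and its listed CpG density corresponds to 457 bp. This is 29 bp and 2 CpGs more than the stretch. The sequence of the reference itself was not compared with the genome, so that where these lie is not known. The wild-type sequence on both sides of exon 1 is shown, since it holds most CpGs that the windows divide among themselves. Each CpG that lies fully within a stretch is in capitals.
Upstream of the start, chr10:77647895-77648156, minus strand: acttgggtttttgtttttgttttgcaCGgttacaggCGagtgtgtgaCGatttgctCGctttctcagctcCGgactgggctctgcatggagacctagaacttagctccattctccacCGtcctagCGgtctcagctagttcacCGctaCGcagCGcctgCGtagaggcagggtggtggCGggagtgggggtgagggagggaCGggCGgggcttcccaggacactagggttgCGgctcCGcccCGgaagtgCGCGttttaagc
Start of intron 1, chr10:77647729-77647815, minus strand: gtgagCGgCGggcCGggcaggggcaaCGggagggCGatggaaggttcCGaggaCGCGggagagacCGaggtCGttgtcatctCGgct

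The upstream stretch holds 19 CpGs and the intron stretch 11. A further CpG spans the start and is not marked or counted here. Its C, at 77647895, is the last base of the upstream stretch. The CpGs are unevenly spread, with a cluster directly upstream of the start and another in the intron. From the listed CpG numbers, window 1 lost 8 CpGs and windows 2, 3 and 4 lost 7 each when mutated, which would leave 10 CpGs if all were mutated. Window borders are not given in the sources read here. Positions of window 3 can be bounded if windows are numbered from 5′ to 3′ and do not overlap, and if the reference adds its 2 further CpGs outside the genomic stretch. The first mutated CpG of window 3 then lies between 57 bp upstream and 76 bp downstream of the start. The last lies between 1 bp upstream and 126 bp downstream. Whichever 10 CpGs are kept, window 3 would then reach the start or exon 1.

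The C of each mutated CpG was replaced by A, so that CpG density and G+C content fell together. The ratio of observed over expected CpGs (OE) was 0.988 in the reference and 0.538 in mut134 and mut124, which keep 17 CpGs. G+C content was 59.96% and 55.1% in the same constructs. Where constructs differ in both, the parts of CpG loss and G+C loss cannot be told apart. Constructs compared further below at equal CpG number, OE and G+C content differ in neither amount.

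Activity is the ratio of RNA to DNA reads of a BC plus 0.05, averaged geometrically over the BCs of a construct, so that a construct without RNA has an activity of 0.05, or -4.32 on the log2 scale. Relative activity is the activity over that of the reference in the same replicate. The library held 1107, 394 and 462 BCs in the wild-type replicates and 390, 356 and 366 in the TKO replicates, of which the 14 window constructs had 266, 114 and 128 in the wild-type replicates and 273 over the 3 TKO replicates together. A value of a window construct rested on a median of 6 BCs (1 to 60), and 15 of 81 values on fewer than 3. Read totals are unknown.

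The reference was among the most active constructs. Its activity was 2.40, 3.49 and 3.04 in the 3 wild-type replicates, on 60, 35 and 40 BCs. In TKO cells it was 0.994, 2.25 and 2.06, on 23, 16 and 19 BCs. All TKO values lay below all wild-type values, and replicate 1 of TKO cells stood apart from the other two. Because relative activity divides by the reference, all constructs of this replicate were shifted up, and results on relative activity in TKO cells are therefore also given without it where they change.

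Mutation of window 3 alone reduced activity strongly, window 2 alone reduced it less, and windows 1 and 4 alone had small effects. The activity of mut3 was 0.298, 1.08 and 0.230 in wild-type cells, on 6, 1 and 3 BCs, and 0.208, 0.326 and 0.325 in TKO cells, on 5, 5 and 3 BCs. All 6 values lay below the reference of their replicate, and the highest came from a single BC. On average mut3 kept 14.3% of the reference in wild-type cells, a log2 relative activity of -2.81 ± 1.04 (SD, n = 3), and 16.9% in TKO cells, -2.57 ± 0.28 (SD, n = 3).

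The activity of mut2 was 0.656, 0.679 and 1.10 in wild-type cells and 0.508, 0.891 and 0.524 in TKO cells. All 6 values lay below the reference. The means were 26.8% of the reference in wild-type cells (log2 -1.90 ± 0.45, SD, n = 3) and 37.2% in TKO cells (log2 -1.43 ± 0.51, SD, n = 3).

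The activity of mut1 was 1.75, 1.28 and 1.82 in wild-type cells and 3.49, 1.61 and 1.62 in TKO cells. It was below the reference in all wild-type replicates and in replicates 2 and 3 of TKO cells, and above it in replicate 1 of TKO cells, where the reference was low. The log2 relative activity was -0.88 ± 0.51 in wild-type cells and 0.33 ± 1.29 in TKO cells (SD, n = 3). Without TKO replicate 1, the TKO value was -0.41.

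The activity of mut4 was 3.61, 2.12 and 4.23 in wild-type cells and 3.66, 2.58 and 1.43 in TKO cells, so that mut4 was the construct with the highest mean of the set in both cell lines. Without TKO replicate 1, however, mut4 had a lower mean than the reference in TKO cells, at a log2 relative activity of -0.16. It was above the reference in 2 of 3 replicates of each cell line, and its log2 relative activity was 0.12 ± 0.72 in wild-type cells and 0.52 ± 1.23 in TKO cells (SD, n = 3). The reference and mut4 thus did not differ beyond their spread.

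The construct with the lowest mean was mut234 in both cell lines. In wild-type cells its activity was 0.0848, 0.0532 and 0.173 on 7, 2 and 2 BCs, and its mean relative activity was 3.13%. In TKO cells it was 0.05 in all 3 replicates on 3, 3 and 2 BCs, which is the lowest measurable value and means that these BCs were found in DNA and not in RNA. Its relative activity in TKO cells is set by the pseudocount and by the reference alone.

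The construct in which only window 3 is intact, mut124, could be compared in wild-type cells. Its activity was 1.93, 0.398 and 1.46, on 2, 1 and 1 BCs, and its relative activity was 80.5%, 11.4% and 48.02%. With 22 CpGs fewer than the reference it stayed above mut3, which lacks 7 CpGs, in replicates 1 and 3, and below it in replicate 2, in which both constructs rested on 1 BC.

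Against the reference, limma called 11 of 13 window constructs lower in wild-type cells at an adjusted p below 0.05, all but mut4 and mut14. For mut1 this rests on the error that the library's mutants share (adjusted p = 0.0136, limma), and the same difference, tested among the pairs described below, gave an adjusted p of 0.188 (limma). Over all 33 mutants of the library, 87.9% were called lower, so that a call against this highly active reference did not set the window constructs apart. In TKO cells, 7 of 12 were called lower, against 62.5% of the 32 mutants with values. No window construct was called higher in either cell line. All 6 constructs with window 3 mutated were among those called in both cell lines, with adjusted p-values from limma up to 1.32e-11 in wild-type cells and 1.24e-05 in TKO cells. These p-values rest on the shared error, and with least squares without moderation mut3 lost its call in wild-type cells and mut134 in TKO cells, leaving 7 constructs called in wild-type and 5 in TKO cells. Of the constructs with window 3 intact, 5 of 7 were called in wild-type cells and 1 of 6, mut2, in TKO cells. Without TKO replicate 1, mut12 was called in addition, and the call of mut2 was lost without TKO replicate 2 or 3. In wild-type cells, mut24 lost its call without replicate 1 or 3, and mut1 without replicate 2 or 3.

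Sorting by window 3 separated the constructs almost fully. Mean relative activity ranged from 20.2% (mut12) to 108% (mut4) in the 8 wild-type constructs with window 3 intact, reference included, and from 3.13% to 14.3% in the 6 with window 3 mutated. In TKO cells the ranges were 37.2% (mut2) to 143% (mut4) over 7 constructs and 3.01% to 16.9% over 6. Within single replicates, the groups did not overlap in 5 of 6 replicates. In the exception, wild-type replicate 2, mut124 was at a log2 relative activity of -3.13 and mut3 at -1.68, both on 1 BC. No other window separated the constructs in any replicate.

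To measure each window in matched sequence, constructs that differ in 1 window were compared within a replicate, giving 25 pairs in wild-type and 22 in TKO cells. Mutating window 3 lowered activity in 6 of 6 pairs in both cell lines, in all 18 replicate values of each, by log2 differences from -2.41 to -4.35 in wild-type and from -2.48 to -4.81 in TKO cells. Mutating window 2 gave lower means in all pairs, 6 in wild-type and 5 in TKO cells, and 3 of them were called in each. The TKO calls include mut34 to mut234, which ends at the lowest measurable activity. With values near the lowest left out, 0 of 4 TKO pairs of window 2 were called. Mutating window 1 was called in no pair, and mutating window 4 was called lower in 1 wild-type pair and higher in 1 TKO pair.

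In all, limma called 40% of the wild-type pairs lower and 0% higher, and 40.9% of the TKO pairs lower and 4.55% higher, at an adjusted p below 0.05 over the pairs of a cell line. Pairs share constructs, so that their values are not independent of each other. In wild-type cells limma gave all pairs the same error (SE 0.52), which treats values from 1 BC like those from 60. Least squares without this sharing called 0 wild-type pairs, and 4 TKO pairs, all of window 3.

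The 6 pairs of window 3 differed in size. From the reference to mut3 the log2 difference was -2.81 (95% confidence interval -3.86 to -1.76, adjusted p = 1.30e-05, limma) in wild-type cells, a 7.00-fold reduction. From mut4 to mut34 it was -5.29, -3.27 and -4.50 in the 3 replicates, with a mean of -4.35 (-5.40 to -3.30, adjusted p = 1.28e-09, limma), a 20.4-fold reduction. From mut24 to mut234 it was -3.80, -5.24 and -3.73. In the pairs with window 4 intact, the means lay between -2.41 and -2.81, and in those with window 4 mutated between -3.67 and -4.35. In TKO cells, these ranges were -2.48 to -2.94 and -3.02 to -4.81, and the largest, from mut24 to mut234, ends at the lowest measurable activity and depends on the pseudocount.

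Averaged over matched pairs, the window 3 effect was -3.36, -2.94 and -3.74 in the wild-type replicates and -3.30, -3.01 and -3.65 in the TKO replicates. The means were -3.35 ± 0.40 and -3.32 ± 0.32 (SD, n = 3), and the difference between cell lines was 0.02 (exact permutation test, two-sided, p = 0.9). The window 2 effect was -0.96, -1.75 and -1.01 in wild-type and -1.59, -1.21 and -0.96 in TKO cells, with means of -1.24 ± 0.44 and -1.25 ± 0.32 (SD, n = 3) and a difference of -0.01 (exact permutation test, p = 1). Both effects were negative in 6 of 6 replicates, and each gave p = 0.031 in an exact two-sided sign-flip test over the 6 replicates, the smallest that 6 replicates can give, or 0.0625 when adjusted over the 4 windows. This test treats the 6 replicates as independent. With same-numbered replicates taken as pairs, both effects were negative in 3 of 3 pairs, with an exact sign-flip p of 0.25, the smallest that 3 pairs can give.

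Over both cell lines together, windows 1 and 4 did not show a common direction. The window 1 effect was -0.54 ± 0.47 in wild-type and 0.13 ± 0.52 in TKO cells (SD, n = 3) and was negative in 4 of 6 replicates (exact sign-flip test, adjusted p = 0.406). By replicate it was -0.04, -0.97 and -0.62 in wild-type cells, all negative, and 0.20, -0.43 and 0.60 in TKO cells. The window 4 effect was -0.05 ± 0.58 and -0.23 ± 0.32 (SD, n = 3) and was negative in 3 of 6 (exact sign-flip test, adjusted p = 0.406). Between cell lines, no window differed at an exact permutation p below 0.2, and a test of 3 against 3 replicates cannot go below 0.1.

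The window 4 average near 0 combined mean changes of opposite sign in the 2 states of window 3, a difference that did not pass the threshold after adjustment (below). With window 3 intact, mutating window 4 changed log2 activity by 0.35, 0.50 and 0.81 in the wild-type replicates, averaged over the same 3 backgrounds, and by 0.50, -0.10 and 0.88 in the TKO replicates. Among these, the background with window 1 mutated went the other way in TKO cells, at -0.43 ± 1.73 (SD, n = 3). With window 3 mutated, it changed log2 activity by -0.81, -1.81 and -0.22 in wild-type and by -0.44, -1.09 and -1.14 in TKO cells. The averages were therefore positive in 5 of 6 replicates with window 3 intact and negative in 6 of 6 with window 3 mutated.

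The pair of mut2 and mut24 showed this in every replicate, whereas the change from the reference to mut4, on more BCs, was positive in 4 of 6. From mut2 to mut24, which removes 7 more CpGs, activity went from 0.656 to 1.18, 0.679 to 2.00 and 1.10 to 2.30 in the wild-type replicates, on 10 to 42 BCs. It went from 0.508 to 1.00, 0.891 to 1.75 and 0.524 to 1.57 in the TKO replicates, on 5 to 16 BCs. The difference was positive in 6 of 6 replicates. In wild-type cells it was 1.16 ± 0.37 (SD, n = 3, adjusted p = 0.0720, limma), which did not pass the threshold. It passed there with at least 3 BCs (adjusted p = 0.0138, limma) and with values near the lowest left out (adjusted p = 0.0411, limma). It also passed with 0.05 added before log2 (adjusted p = 0.0487, limma), but not by least squares or without any 1 replicate. In TKO cells it was 1.18 ± 0.35 (SD, n = 3, adjusted p = 0.0487, limma), which passed, though not when any 1 replicate was left out. With window 3 also mutated, the same change went the other way, from 0.114 to 0.0848, 0.160 to 0.0532 and 0.178 to 0.173 in wild-type cells. This was not called (adjusted p = 0.258, limma), and mut234 rested on 7, 2 and 2 BCs. With values near the lowest left out, the mean log2 difference was -0.23 over 2 replicates.

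The difference between both states, the interaction of windows 3 and 4, was -1.16, -2.31 and -1.03 in the wild-type replicates and -0.94, -0.99 and -2.02 in the TKO replicates. It was negative in 6 of 6 replicates (exact two-sided sign-flip test, p = 0.031), and the adjusted p over the 6 window pairs was 0.188. With same-numbered replicates of both cell lines taken as pairs, it was negative in 3 of 3 pairs, and the exact sign-flip p was 0.25, the smallest that 3 pairs can give. Of the 3 backgrounds behind it, windows 1 and 2 both intact gave -1.54 ± 0.75 in wild-type and -1.54 ± 0.61 in TKO cells, and window 2 mutated gave -1.84 ± 1.14 and -2.33 ± 0.08 (SD, n = 3). The background with window 2 mutated includes mut234, which was at the lowest measurable activity in all TKO replicates and near it in wild-type replicate 2. The size of the TKO value therefore depends on the pseudocount, and mut234 adds nothing to its SD. Window 1 mutated gave -1.10 ± 1.14 and -0.07 ± 2.27 (SD, n = 3), with 1 of 3 wild-type and 2 of 3 TKO replicates above 0. In that background mut14 and mut134 rested on 1 or 2 BCs in all TKO replicates. The other 5 window pairs had a common sign in at most 5 of 6 replicates, with exact sign-flip p-values of 0.219 to 0.969.

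Combinations were further compared with the sum of the log2 effects of their single windows. The difference between observed and expected values passed an adjusted p of 0.05 in limma for 0 of 9 combinations in wild-type cells (0%) and 0 of 8 in TKO cells (0%). At an unadjusted p below 0.05, limma gave 2 in wild-type cells, mut34 and mut124, and 1 in TKO cells, mut34, and least squares called 0 in both. No expected value lay below the lowest measurable activity.

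For mut34, observed minus expected was -2.28, -1.58 and -0.78 in the wild-type replicates and -2.24, -1.32 and -1.08 in the TKO replicates. All 6 values were negative, and the means were -1.54 (95% confidence interval -2.55 to -0.54, adjusted p = 0.0746, limma) and -1.54 (-2.77 to -0.31, adjusted p = 0.220, limma). For mut124 it was 1.43, 1.40 and 0.67 in wild-type cells, with a mean of 1.17 (0.30 to 2.03, adjusted p = 0.0746, limma), on 1 or 2 BCs per replicate. For mut24 it was 0.26, 2.28 and 0.58 in wild-type and -0.90, 0.78 and 2.10 in TKO cells. For mut23, the mean was 0.39 ± 0.75 in wild-type and 0.08 ± 0.07 in TKO cells (SD, n = 3). For mut13, it was 0.24 ± 0.16 and -0.38 ± 1.38 (SD, n = 3). The remaining 4 combinations had means from -0.60 to 0.47 in wild-type cells and from -1.58 to 0.15 in TKO cells, and the confidence intervals of all of them included 0. Intervals were wide, for mut14 in TKO cells from -4.91 to 3.01, so that a missed threshold does not show that windows add up.

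Since windows 2, 3 and 4 hold 7 CpGs each, constructs fall into sets with the same number of CpGs, the same OE and the same G+C content, and within a set only the place of the lost CpGs differs. With 32 CpGs kept (OE 0.866, G+C 58.4%), mean relative activity in wild-type cells was 108% for mut4, 26.8% for mut2 and 14.3% for mut3. With 25 CpGs kept (OE 0.726), it was 59.8% for mut24, 5.31% for mut34 and 5.03% for mut23. With 24 CpGs kept (OE 0.704), it was 70.6% for mut14, 20.2% for mut12 and 9.12% for mut13. With 17 CpGs kept (OE 0.538), it was 35.3% for mut124 and 5.53% for mut134.

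The order within each set was the same in TKO cells where both were measured. It was 143%, 37.2% and 16.9% for mut4, mut2 and mut3, it was 84.4%, 8.30% and 6.66% for mut24, mut34 and mut23, and it was 93.4%, 52.1% and 16.4% for mut14, mut12 and mut13. In each set, the construct or constructs with window 3 mutated had the lowest mean.

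Pairs within these sets were compared after the data had been seen. In limma, 8 of 10 pairs (80%) differed at an adjusted p below 0.05 in wild-type cells and 7 of 9 (77.8%) in TKO cells. These pairs share constructs, and in a set of 3 constructs the third difference follows from the other 2. The counts of pairs are therefore not counts of separate results. Least squares without moderation was not run for these pairs. Of pairs that differ in the state of window 3, the construct with window 3 intact was higher in 7 of 7 wild-type pairs, 6 of them called, and in 6 of 6 TKO pairs, all called. The log2 differences of these pairs ranged from 0.91 to 3.57 in wild-type and from 1.14 to 3.66 in TKO cells. Between mut24 and mut23, both of which keep 25 CpGs, the difference was 3.57 (95% confidence interval 2.73 to 4.41, adjusted p = 0.000479, limma) in wild-type cells and 3.66 (2.64 to 4.68, adjusted p = 0.000330, limma) in TKO cells, an 11.9-fold and a 12.7-fold difference. The 2 constructs rested on 6 to 42 BCs in wild-type and 7 to 16 BCs in TKO cells, and their values did not overlap in either cell line. The uncalled wild-type pairs were mut3 against mut2, in which the highest value of mut3, in replicate 2, rested on a single BC, and mut34 against mut23, both with window 3 mutated, with a difference of 0.08 (-0.81 to 0.97). With only 2 replicates, leaving out replicate 1, 2 wild-type and 3 TKO pairs were called.

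Activity also followed CpG density over the set, though loosely. The Spearman correlation of OE with log2 relative activity was 0.51 ± 0.15 over 14 constructs in wild-type cells and 0.44 ± 0.14 over 13 in TKO cells (mean and SD of 3 replicates). The number of CpGs gave the same Spearman values, since both measures rank the constructs alike. These are descriptions across constructs that share sequence and a reference, and G+C content falls along with OE. Among the 8 wild-type constructs with window 3 intact the correlation was 0.42 ± 0.22, and among the 6 with window 3 mutated 0.67 ± 0.29 (SD over 3 replicates). In TKO cells these correlations were 0.12 ± 0.58 over 7 and 0.15 ± 0.20 over 6 constructs. The state of window 3 alone went with 72.6% ± 16.9 of the variance of log2 relative activity in wild-type and 75.3% ± 4.83 in TKO cells, and OE with 30.5% ± 18.2 and 35.7% ± 11.2 (squared Pearson correlation, SD, n = 3).

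The order of the constructs was much alike in both cell lines, with a Spearman correlation of 0.97 between mean log2 relative activities over the 12 mutants with values in both, the replicate references entering each side. For single constructs, limma called 0 of 12 different between TKO and wild-type cells, with 2, mut12 and mut1, at an unadjusted p below 0.05, and a fit with a replicate block also called 0. Over all mutants of the library, 1 of 32 (3.12%) was called. Relative activity was higher in TKO cells for 11 of 12 constructs, with a median log2 difference of 0.49, whereas activity itself was higher for 4 of 12, with a median of -0.34. Over all 32 mutants these medians were 0.57 and -0.26, and without TKO replicate 1 the median of relative activity was 0.20 over the 12 constructs. The sign of a common difference between cell lines therefore depends on the scale, and the reference, itself lower in TKO cells, sets it.

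On relative activity, the largest difference was that of mut12, whereas on activity itself it was that of mut234, at -0.88, which in TKO cells is at the lowest measurable value. The activity of mut12 was 0.700, 0.672 and 0.444 in wild-type cells and 0.577, 0.644 and 1.74 in TKO cells. Its relative activity was 29.2%, 19.3% and 14.6% in wild-type cells and 58.02%, 28.7% and 84.8% in TKO cells. Relative values overlapped between cell lines by 1 replicate, and the log2 difference was 1.37 (95% confidence interval 0.16 to 2.57, adjusted p = 0.427, limma). For mut1 it was 1.21 (0.01 to 2.42, adjusted p = 0.469, limma), and 0.47 without TKO replicate 1. On activity itself, these differences were 0.54 and 0.39. The intervals of the other 10 constructs included 0 and reached from -1.26 to 2.27, so that differences of more than 1 on the log2 scale in either direction remain possible.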

How the data were processed

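TrAC-seq activities of the Pwp2 window constructs were analysed for 3 replicates of RNA and genomic DNA in each of 2 cell lines, grouped by the titles of the samples. The authors assigned BCs to mutants by string distance in R, normalised RNA and DNA reads to the lower of both totals, and used only BCs exceeding 20 DNA reads. The deposited activity is a ratio of RNA over DNA reads plus 0.05, as a geometric mean over BCs, and the deposited relative activity is its ratio to the reference. The authors deposited G+C content in percent of bases and OE as a ratio. The deposited counts of BCs and the numbers of CpGs per construct were used as given. No source read here gives versions of the upstream tools.

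Values were converted to log2, and constructs with at least 1 BC in at least 2 replicates were kept, as in the study. Differences within a replicate were tested in R 4.3.3 using limma 3.58.1 (moderated over all mutants, pairs or combinations of a table, two-sided, Benjamini-Hochberg adjusted, threshold 0.05), after it was tested on simulated data. Window effects are means over matched pairs in a replicate, tested with exact sign-flip and permutation tests. A set of 3 replicates alone cannot give an exact sign-flip p below 0.25. The remaining steps ran in Python 3.11.15 (pandas 2.3.3, numpy 2.4.6, scipy 1.17.1). Deviations from the cell line means correlated between same-numbered replicates of both cell lines (0.28, 0.37 and 0.12 over 33 constructs, with -0.28 to 0.02 between other numbers), and the numbers were therefore taken as pairs in a fit with a replicate block. Coordinates are 1-based on mm9 with the GENCODE M1 annotation, and the printed sequence was read from that genome. Mutant construct sequences were not used here.

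Per-replicate values are given for the reference, the single-window constructs, the construct with only window 3 intact, the highest and lowest construct, and combinations or constructs near a call. Members, tests and alternatives were chosen with earlier results of these data known. The comparisons of constructs with equal CpG content and of pairwise window interactions, and the sign-flip tests over pairs, were added after seeing the data.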

Additional observations from a re-analysis of the deposited data

How the results depend on the processing

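Window 3 pairs were called in limma in 6 of 6 cases in wild-type cells with values near the lowest left out, with 0.05 added before log2, and without each replicate, and in TKO cells in 6 of 6 with 0.05 added and without replicates 1 or 2, 4 of 6 without replicate 3, and 5 of 5 testable with values near the lowest left out. With at least 3 BCs, 4 of 4 and 5 of 5 were called. The number of all TKO pairs called went from 10 to 6 without each replicate, to 5 without values near the lowest and to 4 by least squares without moderation, which called 0 wild-type pairs. Window 2 calls in TKO cells were all lost without replicates 1 or 2, without values near the lowest, and by least squares. Of these window 2 pairs, 1 of 5 was called without replicate 3 or with 0.05 added, and 4 of 5 with at least 3 BCs. Of the TKO pairs of window 4, 3 of 4 were called with at least 3 BCs, against 1 of 6 without this limit. The calls were 0 of 6 with 0.05 added or by least squares, and 0 of 5 with values near the lowest left out. Least squares called 7 wild-type constructs lower than the reference in place of 11, and 5 TKO constructs in place of 7. With 0.05 added before log2, 2 wild-type combinations, mut34 and mut124, differed from the sum of single windows (adjusted p = 0.0494, limma). Pairs of equal CpG content called ranged from 2 to 9 in wild-type and from 3 to 6 in TKO cells when a replicate was left out. The correlation with OE was 0.31 in wild-type cells without the 2 extreme constructs, and 0.59 in TKO cells as Pearson's r. The interaction of windows 3 and 4 stayed negative, from -1.50 to -1.23 when a replicate was left out at -1.42 with at least 3 BCs, and at -1.08 with values near the lowest left out.

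Centring on the library median in place of the reference moves the zero to a less active construct and so by construction turned signs. In wild-type cells, the log2 difference was then 0.74 for mut3, 1.65 for mut2, 2.81 for mut24, 2.67 for mut1, 3.05 for mut14, 0.10 for mut13, 1.24 for mut12 and 2.05 for mut124. In TKO cells, it was 0.37 for mut3, 1.51 for mut2, 2.69 for mut24, 2.83 for mut14, 0.32 for mut13 and 1.99 for mut12.

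With the replicate block, 0 window constructs and 0 window effects differed between cell lines, as without it. Chosen after seeing the data, the sign-flip tests over 3 pairs of same-numbered replicates also called 0 window effects and 0 interactions after adjustment, as over 6 replicates, but cannot give a p below 0.25. The pairing was not run for tests within a cell line. Of 1018 further values under alternatives, for single constructs, pairs and combinations, 911 kept direction and side of the threshold or moved by less than the spread, 76 lost a call, 16 gained one, 14 changed sign as given above and 1 moved.

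Depth limits the set most at mut134, mut124 and, in TKO cells, mut14, with 1 to 3 BCs in each replicate, and at mut234, which is at or near the lowest measurable activity. Read totals are unknown, and 3 replicates per cell line bound every exact test.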
